A study of Homo sapiens with 18 samples.

Results

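The genes described here are the nuclear genes of the mitochondrial respiratory chain and ATP synthase. They are 97 protein-coding genes of the 41285 genes in the count table, taken by name. Symbols beginning with NDUF, UQCR or ATP5, symbols beginning with COX followed by a digit from 4 to 8, CYC1, and SDHA to SDHD were included, and hyphenated readthrough names were dropped. The set holds 37 subunits of complex I, 8 NDUFAF assembly factors of complex I, 4 subunits of complex II, 10 of complex III, 19 of complex IV and 19 of complex V, the ATP synthase. NDUFA4 and NDUFA4L2 were counted with complex IV. Of the 97, 93 passed the filter on low counts (filterByExpr by group). The others were COX4I2, COX6A2, COX8C and ATP5MGL, which reached at most 10 reads in any library.

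RNA was sequenced from K562, a human chronic myeloid leukaemia line with erythroid features, in 18 libraries, 2 for each of 9 groups of 3 isogenic lines. Parental cells were untreated or given 1000 U/mL interferon alpha (IFN) for 24 hours. VPR-D9 cells, in which doxycycline induces the activator dCas9-VPR, were untreated or in the doxycycline groups coded D2000 and D6. KRAB-D9 cells, in which doxycycline induces the repressor dCas9-KRAB, were untreated, given IFN for 24 hours, given doxycycline, or given doxycycline for 24 hours before IFN and then both. The general protocol gives doxycycline at 2 µg/mL. What D2000 and D6 stand for, the dose of D6, the duration of doxycycline without IFN, the guide RNAs, and whether each D9 line is a clone are stated nowhere in the labels used. Parental cells with doxycycline were not analysed here, so an effect of the drug itself and an effect of the induced dCas9 protein cannot be told apart within 1 line. Whether both libraries of a group were grown as separate cultures is not in the labels, and p-values then reflect only the spread between these samples, which may be technical.

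SAMD9, the gene targeted in both D9 lines, was higher in the doxycycline groups of VPR-D9 and lower in those of KRAB-D9 than without doxycycline. The untreated D9 lines already differed from parental cells in it, so they are not equal to parental controls for this gene. It stood at 9.18 CPM (TMM-scaled read counts relative to the library size) in untreated parental cells and 161 with IFN. It stood at 60.6 CPM in untreated VPR-D9 cells, 961 in D2000 and 948 in D6. In KRAB-D9 cells it stood at 0.557 CPM untreated, 54.2 with IFN, 0.0585 with doxycycline and 0.797 with both. Libraries held 32.7 to 63.0 M counts, and the 97 genes took 1.29 to 1.39% of them in every group but D2000, where they took 1.14 and 1.12%. All 6 erythroid markers were detected in every library, with a summed level of 459 to 2920 CPM. The markers of T cells (1.08 to 5.66 CPM summed), B cells (1.32 to 15.0, 2 of 3 with a row used) and monocytes (0.141 to 0.675) were low, as was the fibroblast sum (2.90 to 40.1). EPCAM carried almost all of the epithelial sum of 30.4 to 98.8 CPM.

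The respiratory chain passes electrons from NADH and succinate to oxygen and pumps protons across the inner mitochondrial membrane, and ATP synthase uses the proton gradient to make ATP. Complexes I, III, IV and V mix nuclear subunits with subunits encoded in mitochondrial DNA, while complex II is wholly nuclear. Nuclear subunit genes are known targets of the transcription factors NRF1 and GABP, an ETS-family factor, and erythroid cells use mitochondria for haem synthesis as well as respiration.

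RefSeq promoters (GRCh38.p14) matched 77 of the 97 genes by symbol. Each was searched over 300 bases, from 250 before to 50 after the annotated start, on both strands, for the NRF1 core GCATGCG and the ETS motif CCGGAAG. The NRF1 core, which can overlap its own reverse complement, was found in 15 of the 77 promoters (19.5%), against 6.19% of 12367 promoters of genes tested and 3.91% of all 35116 promoters. The ETS motif was found in 21 (27.3%), against 17.6% and 10.3%. Either motif was present in 29 of the 77 (37.7%), against 22.4% of the genes tested and 13.5% of all promoters. These are descriptions of letters, not of binding. The following are the 250 bases upstream of the start of 6 genes, shown because they carry a motif and had the smallest adjusted p of such genes lower in D2000 within their complex. Capitals mark every match.
NDUFAF4: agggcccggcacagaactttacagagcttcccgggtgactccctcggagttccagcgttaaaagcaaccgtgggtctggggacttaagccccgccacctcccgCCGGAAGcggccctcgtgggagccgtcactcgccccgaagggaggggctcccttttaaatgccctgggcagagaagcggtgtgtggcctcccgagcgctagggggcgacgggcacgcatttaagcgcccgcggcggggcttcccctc
SDHB: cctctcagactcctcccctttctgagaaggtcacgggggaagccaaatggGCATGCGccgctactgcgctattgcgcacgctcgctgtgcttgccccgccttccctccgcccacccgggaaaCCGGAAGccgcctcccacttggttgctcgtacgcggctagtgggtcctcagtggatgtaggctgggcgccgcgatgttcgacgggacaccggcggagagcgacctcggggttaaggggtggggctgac
NDUFS6: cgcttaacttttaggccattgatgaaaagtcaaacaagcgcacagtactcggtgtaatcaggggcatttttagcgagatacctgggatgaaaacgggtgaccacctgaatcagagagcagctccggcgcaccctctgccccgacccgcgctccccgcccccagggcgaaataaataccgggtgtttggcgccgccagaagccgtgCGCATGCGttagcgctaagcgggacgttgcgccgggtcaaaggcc
UQCRH: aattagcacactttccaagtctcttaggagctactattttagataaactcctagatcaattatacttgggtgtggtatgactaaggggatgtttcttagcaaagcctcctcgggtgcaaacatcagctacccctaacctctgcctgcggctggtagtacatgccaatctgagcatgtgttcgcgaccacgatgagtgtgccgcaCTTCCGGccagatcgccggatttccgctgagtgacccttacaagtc
ATP5F1C: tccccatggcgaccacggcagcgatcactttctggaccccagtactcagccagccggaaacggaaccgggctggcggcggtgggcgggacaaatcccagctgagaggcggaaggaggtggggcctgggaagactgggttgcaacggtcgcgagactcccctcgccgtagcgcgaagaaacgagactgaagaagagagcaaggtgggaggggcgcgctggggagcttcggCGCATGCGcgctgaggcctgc
COX5B: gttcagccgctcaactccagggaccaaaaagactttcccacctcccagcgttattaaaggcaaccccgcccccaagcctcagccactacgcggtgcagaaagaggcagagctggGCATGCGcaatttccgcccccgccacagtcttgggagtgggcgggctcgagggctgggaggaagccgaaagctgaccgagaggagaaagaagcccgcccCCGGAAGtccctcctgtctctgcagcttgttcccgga

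The printed stretches lie at chr6:96897892-96898141 (NDUFAF4, minus strand), chr1:17054033-17054282 (SDHB, minus), chr5:1801157-1801406 (NDUFS6, plus), chr1:46303448-46303697 (UQCRH, plus), chr10:7787927-7788176 (ATP5F1C, plus) and chr2:97645812-97646061 (COX5B, plus). SDHB and COX5B carry both motifs. NDUFS6 and ATP5F1C carry the palindromic form of the NRF1 core, and NDUFAF4 and UQCRH the ETS motif alone. In UQCRH the motif is on the opposite strand.

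Levels of the 97 genes spanned more than 3 orders of magnitude within K562 cells. Per kb of the gene length given in the count table, the highest level in untreated parental cells was that of ATP5F1B, the catalytic beta subunit of F1, at 698 ± 4.8 CPM per kb (SD, n = 2). UQCRH, the hinge protein of complex III, followed at 541 ± 20, and NDUFS5 of complex I at 448 ± 18. COX8A led complex IV at 206 ± 4.7, SDHB complex II at 79.3 ± 2.8, and NDUFAF8 the assembly factors at 35.7 ± 0.65. Ranks depend on the length used, which for NDUFAF2 is 6912 bases against 1017 exon bases in GENCODE v29. The lowest levels were 0.768 ± 0.23 for NDUFA7 in complex I, 2.34 ± 0.043 for NDUFAF5, 1.97 ± 0.17 for SDHA and 11.998 ± 0.67 for UQCRHL. COX4I2, COX6A2 and COX8C were at 0 reads in untreated parental cells, and ATP5MGL stood at 0.0379 ± 0.054 CPM per kb. NDUFA7 and NDUFV2 share over 20% of their exon bases with another gene on the same strand (GENCODE v29), as do NDUFA13, NDUFB8, COX6B2 and COX8A. The pseudogene rows of SDHA held a median of 2305 reads against 964 for SDHA itself, and the row of the NDUFV2 pseudogene 180.5 against 151. UQCRHL is a near copy of UQCRH, and ATP5ME shares 61.6% of its exon bases with a gene on the opposite strand. NDUFS7 (49.1%), COX6A2 (46.0%), NDUFB11 (44.9%), NDUFA1 (44.5%) and NDUFB2 (35.1%) also share exon bases with a gene on the opposite strand, as do NDUFAF3, NDUFB9, UQCRQ, ATP5F1E and ATP5PF at 20.8 to 23.2%. With the strand setting of the counting unknown, levels of all these genes are uncertain.

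**Figure D1:**
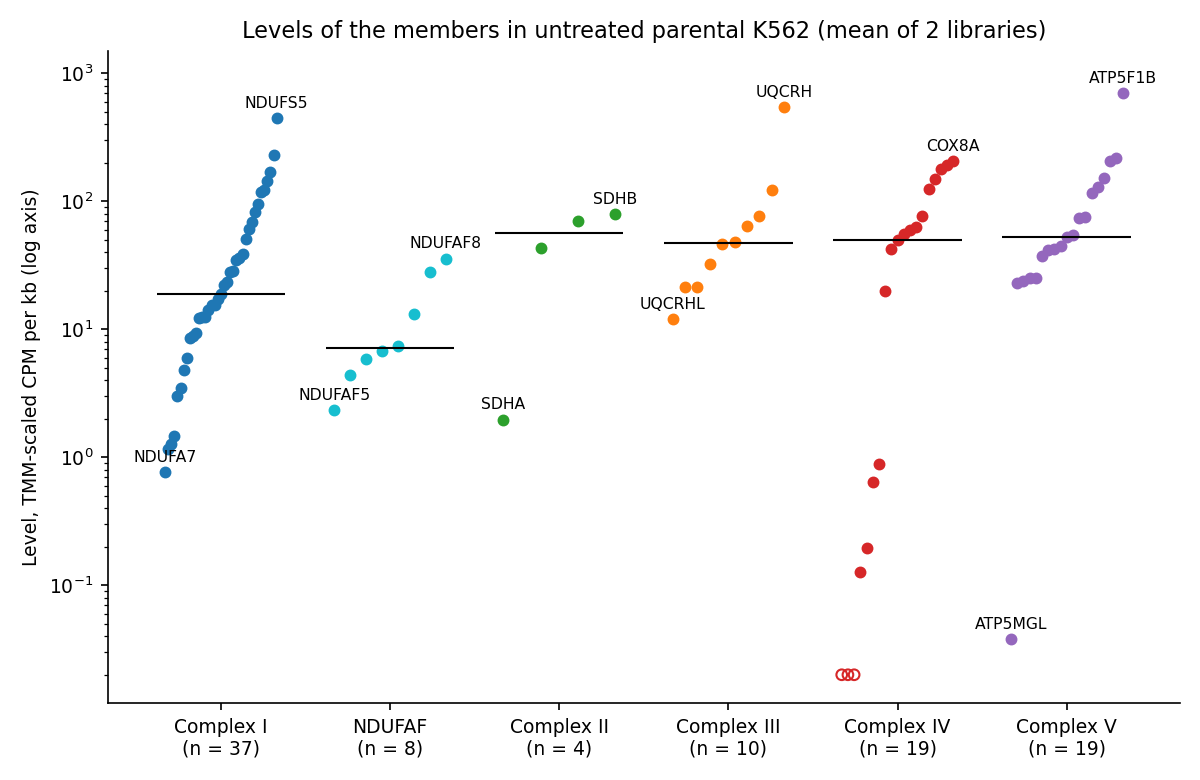
Level of each of the 97 genes in untreated parental cells (mean of 2 libraries, TMM-scaled CPM per kb of gene length, log axis), grouped by complex. The black line is the group median, and the open circles at the bottom are the 3 complex IV genes with no reads. ATP5F1B and UQCRH stand at the top.

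Tissue isoforms of complex IV were represented almost wholly by the widely expressed forms. COX4I1 stood at 76.8 CPM per kb in untreated parental cells and COX4I2, the lung and hypoxia form, at 0. COX6A1 stood at 50.2 and COX6A2, the heart and muscle form, at 0. COX6B1 stood at 150 and COX6B2 at 0.126, COX7B at 55.5 and COX7B2 at 0.883, and COX8A at 206 and COX8C at 0. Of the COX7A family, COX7A2 stood at 63.4, COX7A2L, a factor that joins complexes III and IV, at 19.8, and the muscle form COX7A1 at 0.645. NDUFA4 stood at 59.7 and its paralogue NDUFA4L2 at 0.197. The c ring of ATP synthase is made from 3 genes with the same mature product, of which ATP5MC3 stood at 218, ATP5MC2 at 54.3 and ATP5MC1 at 37.1 CPM per kb. ATP5MG, of the membrane part, stood at 25.3.

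D2000 against untreated VPR-D9 cells was the comparison with the most changes. Of the 93 genes tested, 72 were lower and 4 higher at an adjusted p under 0.05 (edgeR quasi-likelihood test, Benjamini-Hochberg adjustment over all 22143 genes tested). Among all genes tested, 24.2% were lower and 21.9% higher. The median log2 fold change of the 93 was -0.41, a level 24.5% lower, against 0.06 for all genes. Scaled by library totals in place of TMM, the median of all genes moved to 0.29, that of the 93 to -0.17, and the counts to 43 lower and 10 higher. The gap between the 93 genes and all genes was -0.46 under both scalings. In bulk RNA, fewer cells of a kind and less RNA per cell cannot be told apart. The erythroid markers moved with this comparison, from 1106 and 1109 CPM summed in untreated VPR-D9 cells to 459 and 461 in D2000, and EPCAM-led epithelial markers from 64.4 and 69.6 to 30.4 and 30.7. The fibroblast sum went from 2.90 and 3.45 to 30.1 and 30.9, nearly all COL1A1, while PDGFRB stayed near 0. In D6, where few of the 93 genes were called, the fibroblast sum was as high (31.0 and 31.4 CPM), the erythroid sum 990 and 1013 and the epithelial sum 60.9 and 61.1. Their part in the result was not tested.

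Summed over genes, the level in D2000 was below that of untreated cells in all 6 groups of genes. All 97 genes together stood at 13149 and 13187 CPM in untreated VPR-D9 cells, 9745 and 9401 in D2000 and 12382 and 12759 in D6. The D2000 mean was 27.3% below the untreated mean, and the D6 mean 4.54% below it. These sizes depend on the TMM scaling, and as a share of all counts the falls were smaller. The 97 genes took 1.32 and 1.33% of counts in untreated VPR-D9 cells, 1.14 and 1.12% in D2000 and 1.29 and 1.30% in D6. The NDUFAF factors were furthest below in D2000, at 37.9%, followed by complex V at 31.3%, complex III at 28.2%, complex II at 25.5%, complex I at 24.0% and complex IV at 21.9%. Neither D2000 library overlapped an untreated or a D6 library in any of these sums.

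**Figure D2:**
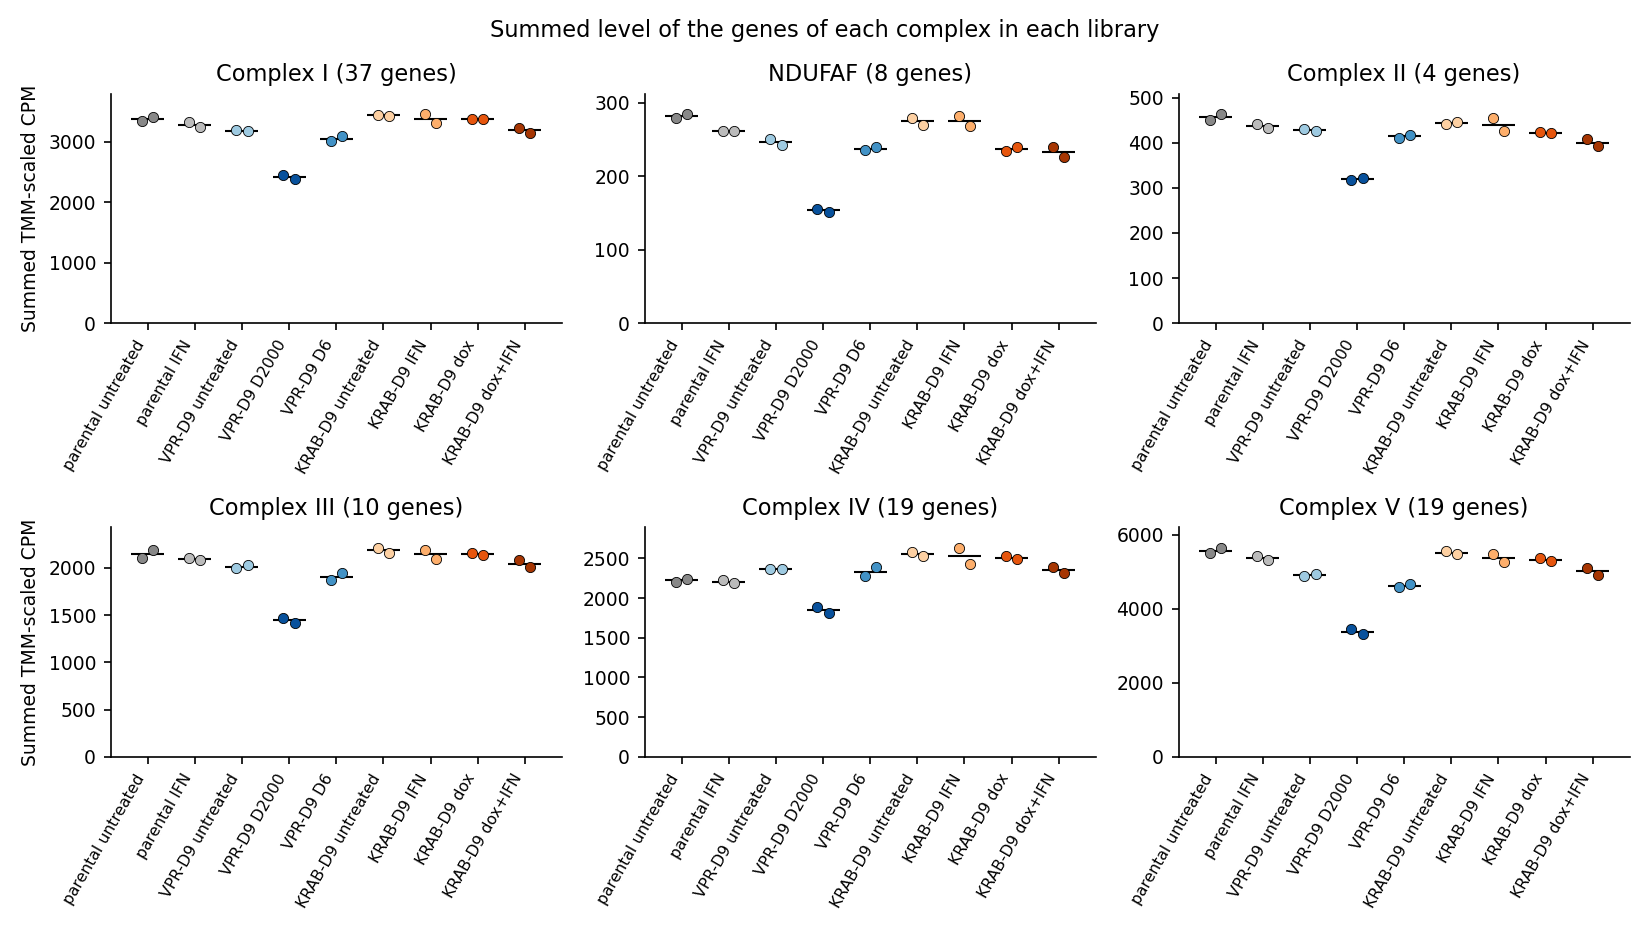
Summed level of the genes of each complex (TMM-scaled CPM, axis from 0) in each of the 18 libraries, 2 points per group. In every panel the 2 D2000 libraries are the lowest. The other libraries differ too, in complex V from 4579 to 5649 CPM.

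The assembly factors of complex I, which build the enzyme but are not part of it, held the largest falls. All 8 NDUFAF genes changed in D2000, 7 lower and 1 higher, with a median log2 fold change of -0.62. NDUFAF4 (ENSG00000123545.6, chromosome 6, 96889315 to 96897891, GRCh38) stood at 58.9 and 57.3 CPM in untreated VPR-D9 cells, 24.0 and 24.97 in D2000 and 53.9 and 55.7 in D6. Its D2000 libraries were the lowest of the 18, and the groups did not overlap (-1.25 ± 0.06 log2, SE, adjusted p = 2.56e-20). NDUFAF2, a chaperone of the late assembly intermediate (chromosome 5, 60945177 to 61154531), stood at 42.1 and 39.6 CPM, 16.8 and 16.3 in D2000, and 38.4 and 35.6 in D6 (D2000: -1.30 ± 0.08, adjusted p = 6.64e-18). NDUFAF8 went from 42.6 and 38.1 to 20.5 and 19.4 CPM (-1.01 ± 0.08, adjusted p = 1.21e-14). NDUFAF5, a hydroxylase of NDUFS7, changed by -0.75, NDUFAF3 by -0.50, NDUFAF7 by -0.41 and NDUFAF6 by -0.29. NDUFAF1, a member of the early assembly complex, went the other way, from 24.8 and 24.9 CPM to 33.1 and 29.6 (0.33 ± 0.07, adjusted p = 0.000195).

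Complex I, the NADH dehydrogenase, had 25 of 37 subunits lower and 2 higher in D2000, with a median of -0.35. The matrix arm, which binds NADH and carries the iron-sulphur clusters, had 12 of 16 lower, none higher and a median of -0.44. The membrane arm, which pumps protons, had 12 of 20 lower, 2 higher and a median of -0.19. The difference between the arms was not tested. NDUFAB1, the mitochondrial acyl carrier protein that sits in both arms, stood at 121 and 122 CPM untreated, 71.6 and 73.8 in D2000 and 109 and 119 in D6 (D2000: -0.74 ± 0.05, adjusted p = 1.01e-16). NDUFS6, a zinc-binding subunit of the matrix arm, stood at 137 and 132 CPM, 84.6 and 84.3 in D2000 and 125 and 120.0 in D6 (D2000: -0.67 ± 0.04, adjusted p = 2.11e-16). NDUFA10 of the membrane arm stood at 90.4 and 83.7 CPM untreated and 53.1 and 53.1 in D2000 (-0.71 ± 0.05). In each of the 3 genes both D2000 libraries lay below all other 16. NDUFV1, which holds the NADH site, changed by -0.62. NDUFB1 (0.24 ± 0.07, adjusted p = 0.00582) and NDUFA3 (0.23 ± 0.08, adjusted p = 0.0207) were higher. The NDUFB1 call was lost without D2000 replicate 1 and the NDUFA3 call without any of the 4 libraries compared. Among the 10 subunits not called were NDUFS4 (-0.04), NDUFC1 (0.07) and NDUFA11 (-0.06).

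Complex II, succinate dehydrogenase, had 3 of 4 subunits lower. SDHB, the iron-sulphur subunit (ENSG00000117118.10, chromosome 1, 17018722 to 17054032), stood at 173 and 174 CPM untreated, 98.6 and 104 in D2000 and 159.9 and 162 in D6. The D2000 libraries were the lowest of the 18 (-0.78 ± 0.05, adjusted p = 2.03e-17). SDHD, a membrane anchor, went from 107 and 106 to 71.0 and 75.6 CPM (-0.54 ± 0.05, adjusted p = 1.21e-11), and SDHA, the flavoprotein, from 16.97 and 16.6 to 13.4 and 12.6 (-0.37 ± 0.09, adjusted p = 0.000744). SDHC, the other anchor, stood at 133 and 130 CPM untreated and 133 and 129 in D2000. Its libraries overlapped, and its log2 difference was -0.00 ± 0.04 (adjusted p = 0.991).

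Complex III, which passes electrons from ubiquinol to cytochrome c, had 9 of 10 genes lower and a median of -0.52. CYC1, cytochrome c1, stood at 226 and 217 CPM untreated, 124 and 127 in D2000 and 205 and 208 in D6 (D2000: -0.82 ± 0.04, adjusted p = 2.15e-19). UQCRH stood at 718 and 730.5 CPM, 501 and 476 in D2000 and 671 and 694 in D6 (D2000: -0.57 ± 0.04, adjusted p = 1.30e-15). UQCRHL, its near copy, had a log2 difference of -0.41 ± 0.08. UQCRFS1, the Rieske iron-sulphur protein, stood at 124 and 128 CPM untreated and 127 and 118 in D2000. These overlapped and the gene was not called (-0.04 ± 0.05, adjusted p = 0.542).

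Complex IV, cytochrome c oxidase, had 11 of 16 tested genes lower, 1 higher and a median of -0.31. COX5A stood at 256 and 255 CPM untreated, 173 and 173 in D2000 and 239 and 243 in D6 (D2000: -0.56 ± 0.04, adjusted p = 4.75e-15). COX5B stood at 377 and 352 CPM, 271 and 267 in D2000 and 380.0 and 401 in D6 (D2000: -0.44 ± 0.04, adjusted p = 4.64e-12). Of the isoform families, COX4I1 (-0.25), COX6A1 (-0.37), COX6B1 (-0.41), COX7A2 (-0.32), COX7B (-0.41), COX8A (-0.29) and NDUFA4 (-0.46) were lower. COX7A2L (-0.09), COX7A1 (-1.0), COX7B2 (-0.08) and COX6B2 (0.44) were not called. NDUFA4L2, the hypoxia-induced paralogue, was higher (2.01 ± 0.71, adjusted p = 0.0182) on 27 and 45 reads in D2000 against 3 and 13 untreated. Its call was lost without untreated replicate 1 or D2000 replicate 2.

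Complex V had 17 of 18 tested genes lower, none higher and a median of -0.48. All 8 tested genes of the membrane part, all 4 of the peripheral stalk and 4 of 5 of F1 were lower. ATP5F1B (ENSG00000110955.9, chromosome 12, 56638175 to 56645984) stood at 1316 and 1325 CPM untreated, 852 and 820 in D2000 and 1199 and 1202 in D6. The 3 groups did not overlap (D2000: -0.66 ± 0.03, adjusted p = 8.62e-20). ATP5MC3 stood at 691 and 695 CPM, 436 and 420 in D2000 and 642 and 654 in D6 (D2000: -0.69 ± 0.04, adjusted p = 1.00e-18). Its c-ring paralogues were lower too, ATP5MC1 by -0.62 ± 0.06 and ATP5MC2 by -0.29 ± 0.05, and ATP5MG by -0.32. ATP5IF1, the inhibitor of ATP hydrolysis, went from 210 and 212 to 142 and 138 CPM (-0.60 ± 0.04, adjusted p = 1.19e-14). ATP5F1D, the delta subunit, was not called, with 109 and 110 CPM untreated and 99.5 and 102 in D2000 (-0.12 ± 0.06, adjusted p = 0.137).

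**Figure D3:**
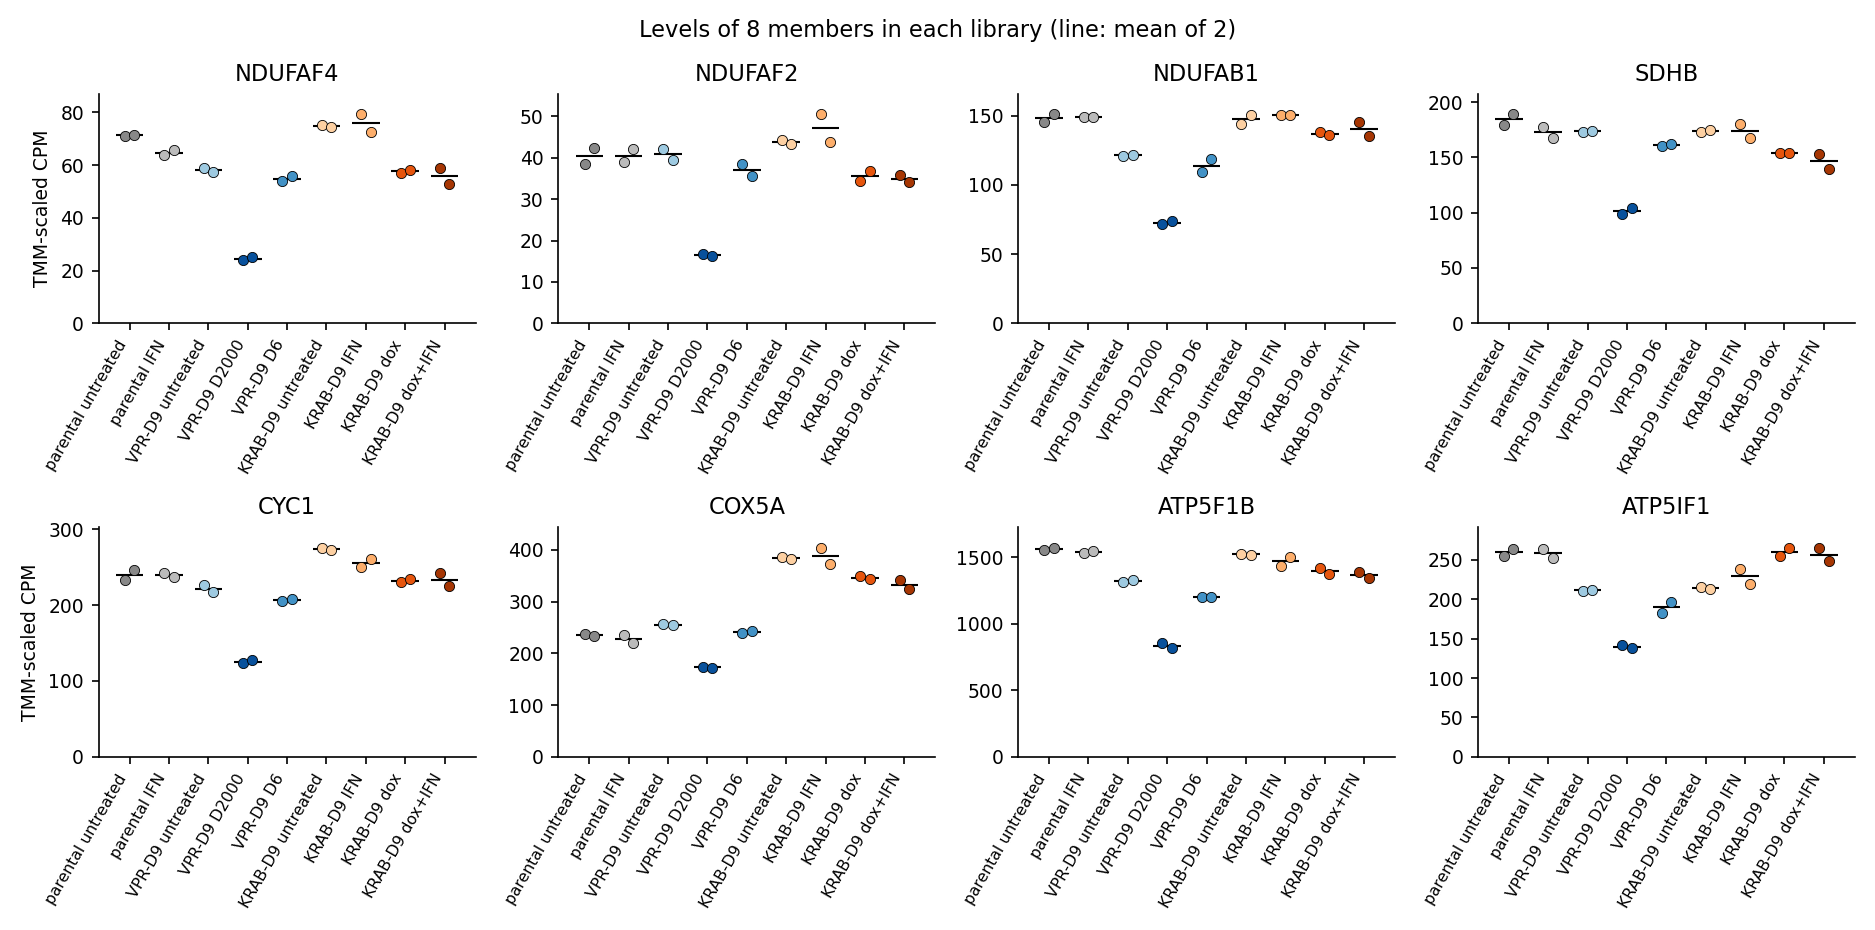
Level by library (TMM-scaled CPM) of NDUFAF4, NDUFAF2, NDUFAB1, SDHB, CYC1, COX5A, ATP5F1B and ATP5IF1, 2 points per group. Each gene's 2 D2000 libraries lie below all others, and COX5A is higher in the KRAB-D9 groups.

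Promoter letters were set beside the D2000 calls. Of the 59 matched genes that were lower, 26 (44.1%) held either motif, against 29.6% of the 4132 promoters of all tested genes lower in D2000. Of the 13 matched genes not called, 3 held a motif (23.1%, against 19.5% of all genes not called). None of the 3 matched genes that were higher held one, against 17.7% of all genes higher. By motif, 14 of the 59 (23.7%) held the NRF1 core, against 7.55% of all genes lower in D2000, and 19 (32.2%) the ETS motif, against 24.2%. The pathway genes are not independent of one another, and no test was made of these shares.

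D6 against the same untreated cells gave few changes at nearly the same SAMD9 level. Of the 93 genes, 5 were lower and none higher, against 3.41% lower and 3.19% higher of all genes tested. The median was -0.04, against -0.01 for all genes. The 5 were NDUFV1 (269.7 and 267.1 CPM untreated, 240.2 and 230.9 in D6, -0.19 ± 0.04, adjusted p = 0.00378), NDUFS3 (-0.16 ± 0.05), UQCRFS1 (-0.16 ± 0.05), ATP5F1B (-0.14 ± 0.03, adjusted p = 0.00569) and ATP5IF1 (-0.16 ± 0.04). With library totals 2 genes were lower and 2 higher. The count was 3 without untreated VPR-D9 replicate 1, and 1 without untreated replicate 2 or without D6 replicate 1.

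D6 against D2000 compared both doxycycline groups directly. There 70 of the 93 genes were higher in D6 and 2 lower, against 21.7% higher and 18.8% lower of all genes tested, with a median of 0.37. With library totals the counts were 44 higher and 10 lower. NDUFAF4 (1.16 ± 0.06, adjusted p = 5.21e-19), NDUFAF2 (1.16 ± 0.08), CYC1 (0.72 ± 0.04), SDHB (0.67 ± 0.05), NDUFA10 (0.65 ± 0.05), NDUFAB1 (0.65 ± 0.05), ATP5MC3 (0.60 ± 0.04), COX5B (0.54 ± 0.04), ATP5F1B (0.52 ± 0.03), SDHD (0.51 ± 0.05), COX5A (0.48 ± 0.04) and UQCRH (0.48 ± 0.04) were higher. NDUFAF1 (-0.21 ± 0.07) and UQCRFS1 (-0.12 ± 0.05) were lower, and each of these calls was lost without D2000 replicate 1 or D6 replicate 1. D2000 and D6 were both set against the same 2 untreated libraries above, whereas this contrast does not use them.

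**Figure D4:**
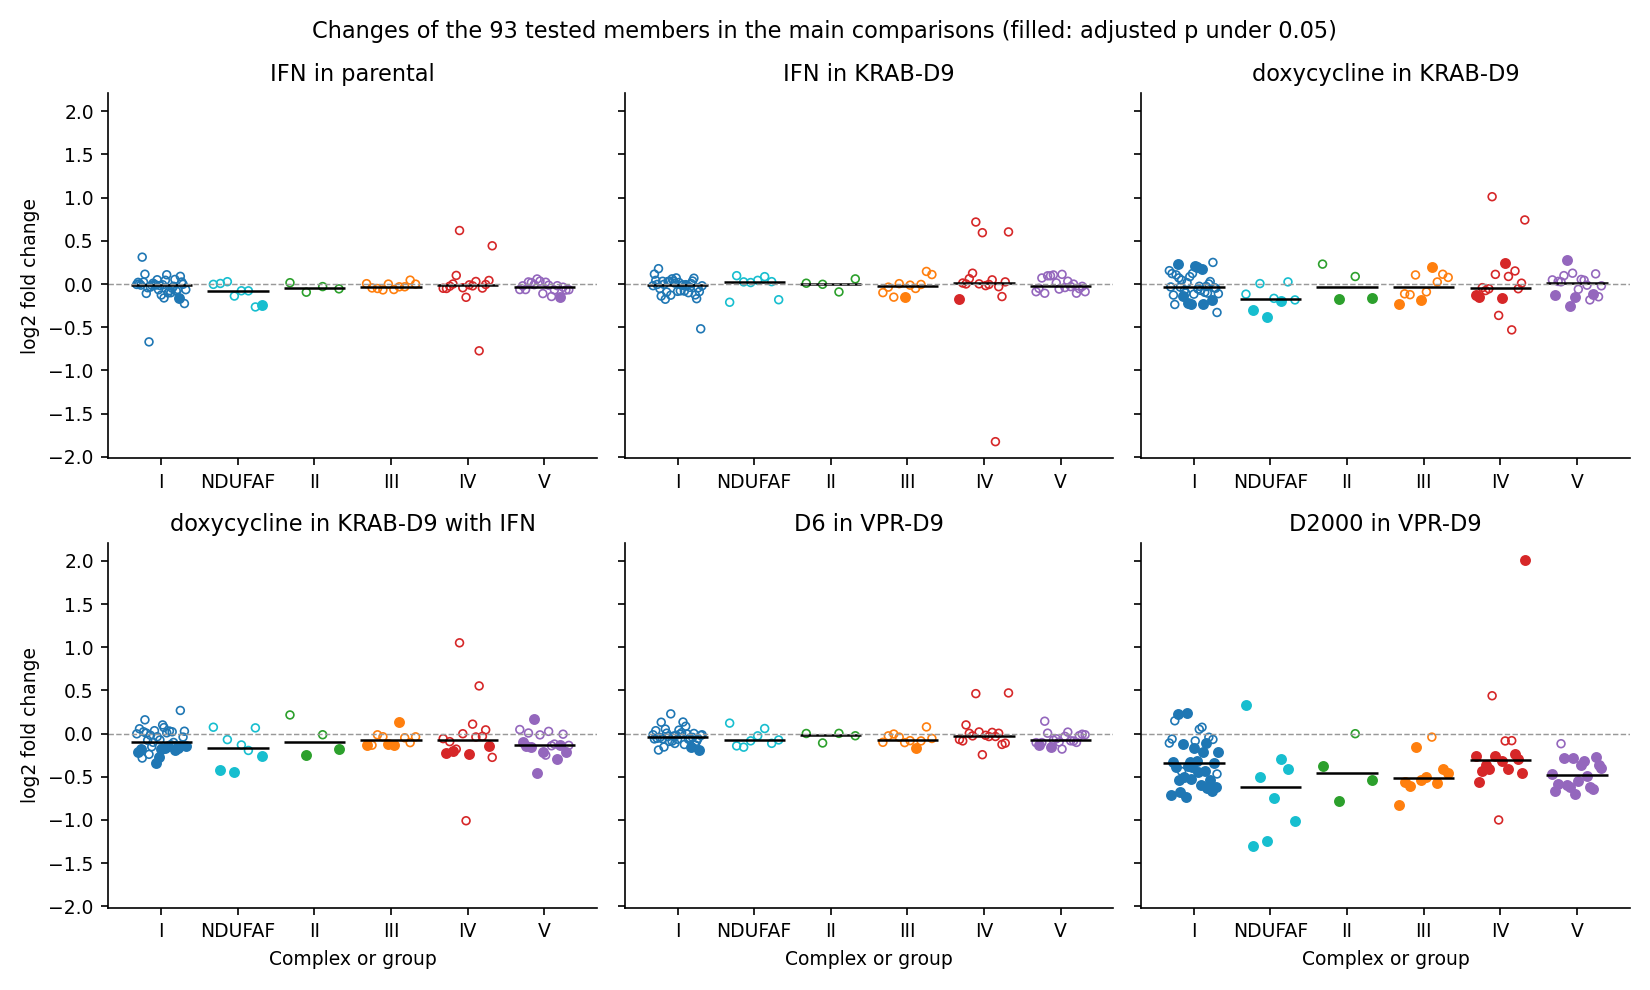
Log2 fold change of the 93 tested genes by complex in each comparison shown (filled points, adjusted p under 0.05; line, median). The D2000 points lie mostly below 0, those of D6 and of IFN near 0, and those of doxycycline in KRAB-D9 on both sides of it.

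Doxycycline in KRAB-D9 cells, without IFN, changed fewer of these genes and by less. Of the 93, 19 were lower and 7 higher, against 12.7% lower and 12% higher of all genes tested, with a median of -0.04 against 0.02 for all genes. Library totals gave 13 lower and 13 higher. The count of 26 became 17 without untreated replicate 2 or doxycycline replicate 2. NDUFAF4 stood at 75.3 and 74.5 CPM untreated and 57.1 and 58.2 with doxycycline (-0.38 ± 0.06, adjusted p = 2.40e-06), and NDUFAF2 at 44.3 and 43.5 against 34.5 and 36.7 (-0.30 ± 0.07, adjusted p = 0.00157). CYC1 stood at 275 and 272 CPM untreated and 231 and 234 with doxycycline (-0.24 ± 0.04, adjusted p = 2.47e-05). ATP5MC1 (-0.25 ± 0.06), NDUFB2 (-0.23 ± 0.05), NDUFB10 (-0.21 ± 0.05), UQCRC1, a core protein of complex III (-0.19 ± 0.04), SDHB (-0.18 ± 0.05), SDHD (-0.17 ± 0.05), COX5A (-0.16 ± 0.04), ATP5MC3 (-0.15 ± 0.04) and COX4I1 (-0.13 ± 0.04) were also lower. ATP5IF1 stood at 215 and 213 CPM untreated and 255 and 265 with doxycycline (0.28 ± 0.04, adjusted p = 3.95e-06). COX7A2L rose from 121 and 124 to 149 and 142 CPM (0.25 ± 0.05, adjusted p = 5.54e-05), and UQCRFS1 from 117 and 112 to 132 and 131 (0.20 ± 0.05, adjusted p = 0.00245). NDUFA3, NDUFB5, NDUFB6 and NDUFC1 of the membrane arm of complex I were also higher, by 0.17 to 0.23. Marker sums differed too. The erythroid sum was 2151 to 2155 CPM untreated and 2511 to 2590 with doxycycline, the fibroblast sum 29.7 to 35.05 and 12.6 to 14.4, and the T cell sum 5.32 to 5.66 and 1.26 to 1.27. Their part was not tested.

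With IFN present, doxycycline in KRAB-D9 cells was set against IFN alone. Of the 93 genes, 31 were lower and 2 higher, against 11.9% lower and 10.4% higher of all genes tested, with a median of -0.10 against 0.01. Library totals gave 13 lower and 5 higher. The count of 33 was 13 without doxycycline plus IFN replicate 2. The libraries of IFN alone differed more from each other than those of other groups, with an SD of log2 differences of 0.166 over genes against 0.095 to 0.114. The erythroid sum was 2467 to 2481 CPM with IFN and 2871 to 2920 with both agents, the fibroblast sum 36.3 to 40.1 and 19.0 to 21.7, and the T cell sum 3.64 to 3.67 and 1.08 to 1.19, and their part was not tested. ATP5MC1 stood at 77.4 and 69.2 CPM with IFN and 55.1 and 51.8 with both agents (-0.45 ± 0.06, adjusted p = 3.12e-07). NDUFAF4 stood at 79.2 and 72.6 against 59.0 and 52.7 (-0.44 ± 0.06, adjusted p = 1.70e-07), and NDUFB10 at 139 and 136 against 113 and 104 (-0.34 ± 0.05, adjusted p = 1.91e-07). NDUFAF2 (-0.42 ± 0.07), NDUFB2 (-0.27 ± 0.05), SDHB (-0.24 ± 0.05), COX7A2 (-0.23 ± 0.05), COX5A (-0.22 ± 0.04), ATP5MC3 (-0.21 ± 0.04), SDHD (-0.18 ± 0.05), UQCRC2 (-0.13 ± 0.04) and CYC1 (-0.13 ± 0.04) were lower. ATP5IF1 (0.17 ± 0.04, adjusted p = 0.00438) and UQCRFS1 (0.14 ± 0.05, adjusted p = 0.04) were higher.

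Calls in the KRAB-D9 and VPR-D9 lines, which share no libraries, were then set side by side. All 19 genes lower with doxycycline in KRAB-D9 were also lower in D2000, of which they are 26.4%, and so were all 31 genes lower with IFN present (43.1% of the 72). Of the 93 genes, 77.4% were lower in D2000 in any case. Among all genes tested, 70.7% of the 2815 lower with doxycycline in KRAB-D9 and 73.0% of the 2627 lower with IFN present were also lower in D2000, of which they are 37.2% and 35.9%. In both KRAB-D9 comparisons 15 genes were lower (78.9% of 19, 48.4% of 31), against 69.2% and 74.2% for all genes tested. ATP5IF1 and NDUFB6 were higher with doxycycline in KRAB-D9 and lower in D2000. Of the 72 genes lower in D2000 these are 2.78%, and of the 7 higher in KRAB-D9 28.6%. Over all genes tested, 451 were higher with doxycycline in KRAB-D9 and lower in D2000. They are 8.43% of the 5348 lower in D2000 and 16.99% of the 2654 higher in KRAB-D9. Nothing particular to the pathway genes is read from so few.

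The difference between the doxycycline effects, D2000 in VPR-D9 minus doxycycline in KRAB-D9, was tested in the same model. It was more negative in D2000 for 64 of the 93 genes and more positive for 1, against 19.1% and 12.2% of all genes tested, with a median of -0.40 against -0.03. ATP5IF1 differed by -0.88 ± 0.06 (adjusted p = 1.71e-14), NDUFAF2 by -1.003 ± 0.10 and NDUFAF4 by -0.87 ± 0.08. NDUFA10 (-0.68 ± 0.07), NDUFAB1 (-0.63 ± 0.07), SDHB (-0.60 ± 0.07), UQCRH (-0.59 ± 0.06), CYC1 (-0.58 ± 0.06), ATP5F1B (-0.53 ± 0.05), COX5A (-0.41 ± 0.06), COX5B (-0.40 ± 0.06) and SDHD (-0.37 ± 0.07) also differed. NDUFAF1 was the gene with the more positive effect (0.45 ± 0.10, adjusted p = 0.000648). The lines also differ in their untreated levels and in what dCas9 carries, and these cannot be told apart here.

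**Figure D5:**
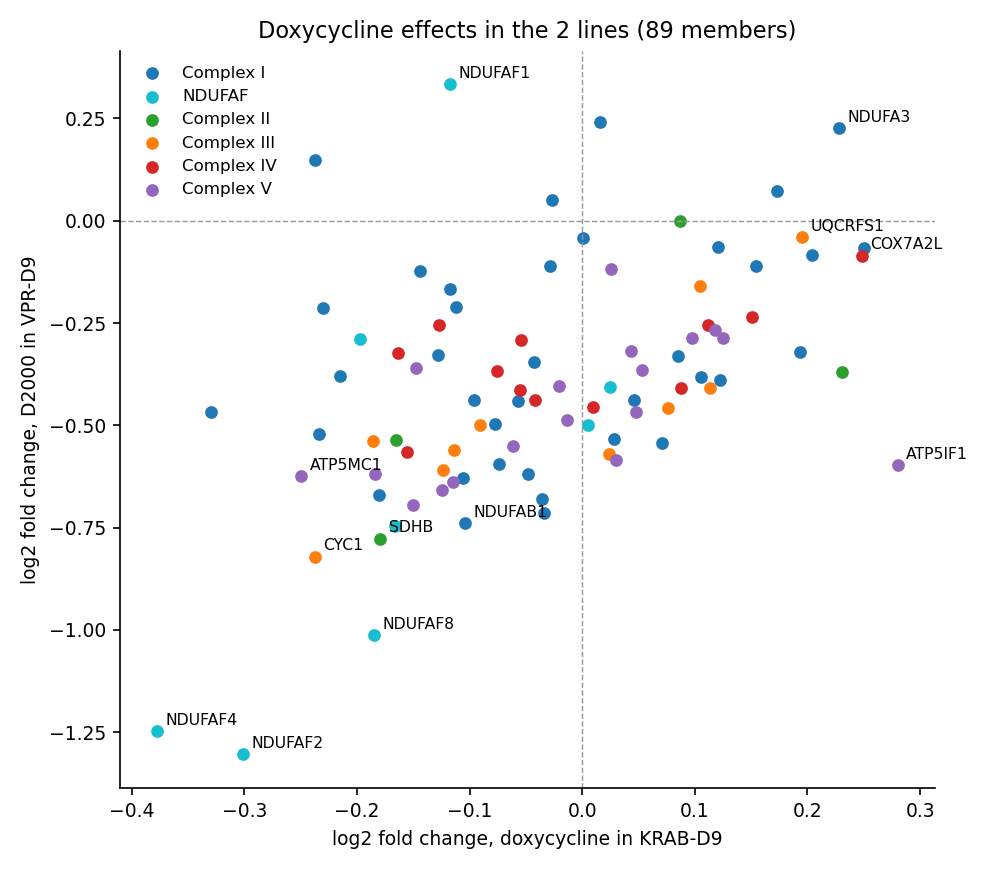
Log2 fold change in D2000 of VPR-D9 (y) against that of doxycycline in KRAB-D9 (x), for 89 genes, leaving out 4 of very low level (COX6B2, COX7A1, COX7B2, NDUFA4L2). Of the 89, 48 are below 0 on both axes and 83 lie below the diagonal.

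IFN changed few of these genes. Marker sums differed here too. In parental cells the erythroid sum was 1782 to 1802 CPM untreated and 2032 to 2086 with IFN. In KRAB-D9 cells it was 2151 to 2155 and 2467 to 2481, and the T cell sum 5.32 to 5.66 and 3.64 to 3.67. Their part was not tested. In parental cells 3 of the 93 genes were lower and none higher, against 1.31% lower and 3.03% higher of all genes tested. The median was -0.03 against 0.00. ATP5PB, the b subunit of the peripheral stalk, stood at 637 and 648 CPM untreated and 588 and 572 with IFN (-0.15 ± 0.04, adjusted p = 0.0116). NDUFS6 stood at 130 and 127 against 117 and 114 (-0.16 ± 0.04, adjusted p = 0.0275), and NDUFAF8 at 47.1 and 48.4 against 42.5 and 37.97 (-0.25 ± 0.07, adjusted p = 0.0444). The count was 0 without either untreated library or without IFN replicate 2. In KRAB-D9 cells 2 were lower and none higher, against 2.42% and 3.98% of all genes. COX4I1 stood at 442 and 447 CPM untreated and 379 and 411 with IFN (-0.17 ± 0.04, adjusted p = 0.00371), and UQCRC1 at 207 and 215 against 183 and 196 (-0.15 ± 0.04, adjusted p = 0.0277). The count of 2 was 1 without untreated replicate 1, 0 without untreated replicate 2, 6 without IFN replicate 1, and 12 (6 higher, 6 lower) without IFN replicate 2.

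Under doxycycline, IFN in KRAB-D9 cells lowered 7 of 93 and raised none, against 1.77% lower and 3.12% higher of all genes tested, with a median of -0.09 against -0.00. They were SDHC (145 and 147 CPM with doxycycline, 130 and 126 with both, -0.19 ± 0.04, adjusted p = 0.00227), NDUFAF8 (-0.26 ± 0.08), COX7C (-0.21 ± 0.06), NDUFB6 (-0.20 ± 0.06), ATP5PD (-0.18 ± 0.05), NDUFB9 (-0.15 ± 0.04) and ATP5PB (-0.12 ± 0.04). The count was 3 without doxycycline replicate 1 or doxycycline plus IFN replicate 1, 1 without doxycycline replicate 2, and 0 without doxycycline plus IFN replicate 2. The erythroid sum was 2511 to 2590 CPM with doxycycline and 2871 to 2920 with both agents, and its part was not tested. The interaction of IFN and doxycycline in KRAB-D9 gave no call among the 93 (edgeR and DESeq2 both 0, 10 at an unadjusted p under 0.05), against 0.0632% higher and 0.0948% lower of all genes. The IFN effect in KRAB-D9 minus that in parental cells also gave none (edgeR and DESeq2 both 0, 7 at an unadjusted p under 0.05), against 0.145% and 0.158%. Without KRAB-D9 IFN replicate 2 these counts were 12 and 10.

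Untreated lines differed from one another in these genes. VPR-D9 against parental cells gave 32 lower and 8 higher, against 18.2% lower and 18.5% higher of all genes tested, with a median of -0.09. Library totals gave 16 lower and 18 higher, and leaving out parental untreated replicate 2 gave 26 calls. The erythroid sum was 1782 to 1802 CPM in parental cells and 1106 to 1109 in VPR-D9, and the epithelial sum 94.7 to 95.4 and 64.4 to 69.6, and their part was not tested. NDUFC2 stood at 28.8 and 28.6 CPM in parental cells and 43.3 and 38.1 in VPR-D9 (0.50 ± 0.07, adjusted p = 1.96e-07), while NDUFC1, a neighbour of it in the membrane arm, stood at 67.6 and 72.1 against 50.7 and 49.5 (-0.48 ± 0.06, adjusted p = 1.94e-08). NDUFA5 (-0.48 ± 0.06), NDUFAF4 (-0.30 ± 0.06), ATP5MC3 (-0.29 ± 0.04), NDUFAF1 (-0.26 ± 0.07), ATP5F1B (-0.24 ± 0.03), UQCRC2 (-0.19 ± 0.04), SDHD (-0.18 ± 0.05), UQCRFS1 (-0.17 ± 0.05), COX7A2L (-0.16 ± 0.05) and the low NDUFA4L2 (-2.08 ± 0.72) were lower. COX5B (0.42 ± 0.04), ATP5PD (0.38 ± 0.05), NDUFS8 (0.29 ± 0.05) and NDUFA4 (0.25 ± 0.05) were higher. The NDUFA4L2 call was lost without parental untreated replicate 2 or VPR-D9 untreated replicate 1.

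KRAB-D9 against parental cells gave 20 higher and 9 lower, against 14.2% higher and 14.3% lower of all genes tested, with a median of 0.04. The erythroid sum was 2151 to 2155 CPM in KRAB-D9 and the fibroblast sum 29.7 to 35.05, against 1782 to 1802 and 5.05 to 6.03 in parental cells, and their part was not tested. COX5A stood at 238 and 234 CPM in parental cells and 387 and 383 in KRAB-D9 (0.71 ± 0.04, adjusted p = 3.03e-17). COX4I1 (0.26 ± 0.04), NDUFAF6 (0.32 ± 0.07), NDUFS8 (0.31 ± 0.05), ATP5PO (0.28 ± 0.07), UQCR10 (0.26 ± 0.07), NDUFB7 (0.24 ± 0.05), CYC1 (0.20 ± 0.04) and ATP5MC2 (0.13 ± 0.05) were higher. NDUFAF8 stood at 47.1 and 48.4 CPM in parental cells and 28.9 and 27.6 in KRAB-D9 (-0.76 ± 0.08, adjusted p = 1.45e-10). ATP5MC1 (-0.52 ± 0.06), NDUFAF7 (-0.45 ± 0.10), ATP5PD (-0.35 ± 0.05), UQCRFS1 (-0.31 ± 0.05), NDUFS5 (-0.27 ± 0.04) and NDUFA5 (-0.24 ± 0.06) were lower. ATP5PD, the d subunit of the stalk, was thus above its parental level in VPR-D9 and below it in KRAB-D9.

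The 6 main comparisons were IFN in parental and in KRAB-D9 cells, doxycycline in KRAB-D9 with and without IFN, D2000 and D6. Across them, NDUFS6, UQCRC1, ATP5F1B and ATP5PB were called lower most often, in 4 each. Of the 93 genes, 14 were lower in 3, 19 in 2, 36 in 1 and 20 in none. The same counts were not made over all genes tested, so nothing particular to these genes is read from them. Several of these comparisons share control libraries.

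Lists of related genes were described in the same fit. Their counts in D2000 stand against 24.2% lower and 21.9% higher of all genes tested. In D2000 all 12 markers of mitochondrial content were lower (median -0.67), among them the chaperone HSPD1 (-1.50 ± 0.03, adjusted p = 1.25e-30) and the import pore TOMM40 (-1.51 ± 0.04, adjusted p = 2.77e-27). Of 12 tested nuclear regulators of mitochondrial genes 10 were lower (median -0.58), led by TFB2M, a mitochondrial transcription factor (-1.32 ± 0.06), and LRPPRC, which stabilises mitochondrial mRNA (-0.79 ± 0.04). Other complex I assembly genes had 9 of 11 lower (median -0.44), including FOXRED1 (-0.61 ± 0.05) and DMAC1 (-0.65 ± 0.06). Assembly genes of complex IV had 15 of 25 lower (median -0.34), including COA7 (-0.84 ± 0.04) and COA4 (-0.82 ± 0.05). Of the complex II and III assembly genes, 10 of 13 listed had a row used, and 7 were lower and 1 higher (median -0.29), with BCS1L (-1.02 ± 0.07) and LYRM7 (-0.82 ± 0.05) lower and SDHAF4 (0.89 ± 0.18) higher. Electron carriers and ubiquinone synthesis genes had 7 of 14 lower and 1 higher (median -0.19). Cytochrome c, CYCS, was lower (-1.08 ± 0.04, adjusted p = 1.16e-21), as was PDSS1 (-1.40 ± 0.08), while ETFDH was higher (0.84 ± 0.08). None of the 5 complex V assembly genes was called (0 at an unadjusted p under 0.05, median -0.04). Of the 13 mitochondrially encoded subunits, 2 were lower (median -0.05), MT-CO1 (-0.16 ± 0.04) and MT-ND2 (-0.26 ± 0.07). The lists were fitted with TMM only. Library totals moved the median of all genes in D2000 by 0.23, so the direction of changes as small as these is uncertain.

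For doxycycline in KRAB-D9 without IFN, the lists are read against 12.7% lower and 12% higher of all genes tested. Mitochondrial content had 8 of 12 lower and none higher, led by TOMM40 (-0.49 ± 0.04) and TOMM22 (-0.46 ± 0.04). Regulators had 7 of 12 lower and none higher, led by PPRC1 (-0.62 ± 0.05) and TFB2M (-0.55 ± 0.06). Other complex I assembly genes had 3 of 11 lower, with ECSIT (-0.45 ± 0.07) and TMEM126A (-0.41 ± 0.08), and TIMMDC1 higher (0.14 ± 0.05). Complex II and III assembly genes had 3 of 10 lower, BCS1L among them (-0.40 ± 0.07), and SDHAF4 higher (1.03 ± 0.19). Complex IV assembly genes had 8 of 25 lower, with COA4 (-0.34 ± 0.05) and COA6 (-0.45 ± 0.07), and 3 higher, with COX18 (0.34 ± 0.08) and SURF1 (0.38 ± 0.10). Of the 5 complex V assembly genes, ATPAF1 was higher (0.28 ± 0.06). Of the 13 mitochondrially encoded subunits, 6 were higher and none lower (median 0.24), with MT-CO1 (0.17 ± 0.04) and MT-ND5 (0.27 ± 0.06). Electron carriers had 4 of 14 lower, with CYCS (-0.36 ± 0.04) and PDSS1 (-0.38 ± 0.07), and 2 higher, ETFB (0.29 ± 0.08) and COQ5 (0.27 ± 0.09). The D6 calls stand against 3.41% lower and 3.19% higher of all genes tested. In D6, 4 of 12 content markers were lower, HSPD1 (-0.22 ± 0.03) and TOMM40 (-0.20 ± 0.04) among them. COX11, an assembly gene of complex IV, was lower there too (-0.23 ± 0.06), ETFDH was higher (0.35 ± 0.08), and no other listed gene was called apart from HSPA9 (-0.14) and TOMM20 (-0.12) of the content list.

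With IFN present, doxycycline in KRAB-D9 lowered 9 of 12 content markers, 7 of 12 regulators, 4 of 11 other complex I assembly genes, 3 of 10 for complexes II and III, 5 of 25 for complex IV, 1 of 5 for complex V and 3 of 14 electron carriers. In the same order it raised 0, 0, 1, 1, 2, 1 and 1 of them. Among all genes tested 11.9% were lower and 10.4% higher. The counts for all the assembly lists and for electron carriers lie within a few genes of those shares. TFB2M (-0.55 ± 0.06), TOMM22 (-0.41 ± 0.05) and CYCS (-0.38 ± 0.04) were lower. IFN in parental cells lowered TMEM126A (-0.36 ± 0.09), LYRM7 (-0.17 ± 0.05), NRF1 (-0.25 ± 0.07) and the phosphate carrier SLC25A3 (-0.14 ± 0.04). They are 1 of 11 other complex I assembly genes, 1 of 10 for complexes II and III, 1 of 12 regulators and 1 of 12 content markers. Among all genes tested 1.31% were lower and 3.03% higher. In KRAB-D9 cells IFN lowered TMEM126A (-0.29 ± 0.09), SLC25A3 (-0.17 ± 0.04) and the ADP/ATP carrier SLC25A5 (-0.13 ± 0.03), and raised ATPAF1 (0.23 ± 0.06) and IMMT (0.14 ± 0.04). Those lower are 1 of 11 other complex I assembly genes and 2 of 12 content markers. Those higher are 1 of 5 complex V assembly genes and 1 of 12 content markers. Among all genes tested 2.42% were lower and 3.98% higher. Nothing particular to the lists is read from calls this few.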

How the data were processed

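RNA of 18 K562 libraries, made with a stranded kit that selects polyA RNA per the labels' protocols, was measured as gene counts. The authors deposited raw counts of reads, as whole numbers, for 41285 genes in 1 table whose column names equal the sample titles. Genome build GRCh38.p13 and the tools featureCounts 2.0.2, STAR 2.7.8a, cutadapt 2.10 and FastQC 0.11.9 are listed in the submitters' processing notes. The notes give no order for them, and no source used here gives the annotation, the strandedness of the counting or how reads with several matches were treated, so overlapping genes and near copies are uncertain.

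Counts were analysed in R 4.3.3 with edgeR 4.0.16 and limma 3.58.1. filterByExpr by group left 22143 genes, and counts were scaled by TMM. All 18 libraries entered 1 robust quasi-likelihood model with a mean for each of the 9 groups, with 9 residual degrees of freedom (common biological CV 0.0569). p-values were adjusted by Benjamini and Hochberg's method across every tested gene, and genes were called under 0.05. Standard errors are the size of the log2 fold change over the square root of F, and are approximate for low counts. Errors over libraries are SDs of 2. Levels compared between genes are CPM per 1000 bases of the length column in the table, which lies within 5% of the GENCODE v29 exon length for 65 of the 97 genes.

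There were 13 comparisons, 6 of them main. Named were up to 2 called genes per complex, comparison and direction by smallest adjusted p, isoform families, genes that failed the filter, extremes of level, genes called the same way most often, and up to 2 called genes per list and direction of a main comparison; a few others were named after their values were seen. The 8 lists are mitochondrially encoded subunits, assembly genes of complex I, of II and III, of IV and of V, electron carriers, nuclear regulators and mitochondrial content. The members and lists were chosen with earlier results of these data known. Replicate numbers were not used to pair the samples in the main model. Alternatives tried were DESeq2 1.42.0, its size factors, library totals, no filter, only the compared groups, a replicate block, and leaving out each library.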

Additional observations from a re-analysis of the deposited data

Results flagged for a closer look

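The change in D2000 of VPR-D9 and the change with doxycycline in KRAB-D9 differed by a test of the difference itself (edgeR quasi-likelihood test, adjusted p under 0.05). The change was more negative in D2000 for 64 of the 93 genes tested and more positive for 1, against 19.1% and 12.2% of all genes tested. By complex it was more negative for 20 of 37 in complex I, 6 of 8 NDUFAF factors, 3 of 4 in complex II, 10 of 10 in complex III, 9 of 16 in complex IV and 16 of 18 in complex V. On the log2 scale the difference was -1.0 for NDUFAF2, -0.88 for ATP5IF1, -0.87 for NDUFAF4, -0.68 for NDUFA10, -0.63 for NDUFAB1, -0.60 for SDHB, -0.59 for UQCRH, -0.58 for CYC1, -0.53 for ATP5F1B, -0.41 for COX5A, -0.40 for COX5B and -0.37 for SDHD. For NDUFAF1 it was 0.45. ATP5IF1 lay on opposite sides of 0 in the 2 lines.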

How the results depend on the processing

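The alternatives were recorded for 123 values, those of up to 2 called genes per complex, comparison and direction. None of them changed sign, but some summaries over the 93 genes did. Uncalled genes, other named genes and the lists were not recorded. Library totals moved the median of all genes in D2000 by 0.23, so D2000 values near 0 depend on the scaling. Untreated VPR-D9 against parental cells went from 8 higher and 32 lower to 18 higher and 16 lower with library totals. The median for IFN in KRAB-D9 went from -0.01 to 0.04 without IFN replicate 2 and to 0.02 without untreated replicate 1, and that of the IFN effect in KRAB-D9 minus parental from 0.03 to -0.02 without KRAB-D9 IFN replicate 1. The cause was not tested. Library totals in place of TMM gave 4 calls among the 93 genes for IFN in KRAB-D9 (2 under TMM), 18 for doxycycline in KRAB-D9 with IFN (33) and 43 for the D2000 minus KRAB-D9 difference (65). DESeq2's size factors gave 4 for IFN in KRAB-D9 with doxycycline (7), and DESeq2 gave 8 for D6 (5). Fitting only the compared groups gave 6 for IFN in parental cells (3), 0 for IFN in KRAB-D9, 41 for doxycycline in KRAB-D9 (26), 12 for it with IFN, 14 for D6 and 16 for IFN in KRAB-D9 with doxycycline. The other counts stayed within 1.5 times. Leaving out 1 library gave 68 to 74 calls for D2000, 67 to 69 for D6 against D2000, 1 to 4 for D6, 57 to 65 for the D2000 minus KRAB-D9 difference, 17 to 20 for doxycycline in KRAB-D9, 13 to 38 for it with IFN, 0 to 12 for IFN in KRAB-D9, 0 to 3 for it with doxycycline, 0 to 3 for IFN in parental cells, 0 to 12 for the IFN by doxycycline interaction, 0 to 10 for the IFN effect in KRAB-D9 minus parental, 21 to 25 for untreated KRAB-D9 and 26 to 29 for untreated VPR-D9. A lone library is then assumed to vary like the others. Replicate numbers were not used as pairs in the main model. Deviations of same-numbered libraries correlated by -0.176 to 0.269 (median -0.007) over 36 pairs of groups, 4 of them over 0.1. Whether some groups share a replicate effect was not tested. With the replicate block D2000 gave 75 calls, doxycycline in KRAB-D9 28 and untreated KRAB-D9 32. Of the 123 values, 14 lost their call with library totals, 8 with only the compared groups, 6 without the filter, 4 with DESeq2's size factors, 3 with DESeq2 and 0 with the block. Each value was also refitted without each library of its compared groups in turn. Many of these refits lost the call, though most kept it, and none changed sign. NDUFA4L2, with at most 45 reads in D2000 and untreated VPR-D9 libraries, lost its call there without either of 2 libraries.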

Other observations

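Among the 13 subunits encoded in mitochondrial DNA, some were lower with IFN in each IFN comparison. Their difference from the nuclear subunits was not tested. In parental cells 5 of 13 were lower with IFN and none higher (median log2 fold change -0.35), against 1.31% lower and 3.03% higher of all genes tested, among them MT-CO1 (-0.35 ± 0.04), MT-CYB (-0.49 ± 0.08, adjusted p = 0.00336), MT-ND4L (-0.52 ± 0.09) and MT-ND4 (-0.51 ± 0.09), by edgeR with Benjamini-Hochberg adjustment over all genes. In KRAB-D9 cells 7 of 13 were lower and none higher (median -0.39), against 2.42% and 3.98% of all genes, including MT-ND5 (-0.48 ± 0.06, adjusted p = 0.000109), MT-CYB (-0.55 ± 0.08) and MT-ND6 (-0.52 ± 0.10). Under doxycycline, IFN in KRAB-D9 lowered 7 of 13 and raised none (median -0.34), against 1.77% and 3.12%, including MT-CO1 (-0.30 ± 0.04) and MT-ND5 (-0.55 ± 0.06). With doxycycline alone in KRAB-D9, 6 of 13 were higher and none lower (median 0.24), against 12% and 12.7%, including MT-CYB (0.36 ± 0.08, adjusted p = 0.00555) and MT-ND5 (0.27 ± 0.06). With doxycycline added to IFN, 4 were higher and 1, MT-ND1 (-0.37 ± 0.08), lower, against 10.4% and 11.9%. IFN and doxycycline in KRAB-D9 were each set against the same untreated libraries. The libraries were selected for polyA, and the part of that selection in these levels was not tested.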
